A study of Glycine max with 9 samples.

Results

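FAD2-1A and FAD2-1B are the 2 oleate desaturase genes that soybean expresses mainly in its developing seeds, and they were examined here across 9 soybean lines. They were taken by name and by their identifiers in the deposited table, XLOC_026649 for FAD2-1A and XLOC_052704 for FAD2-1B, so the members are 2 of the 33779 genes listed. FAD2 enzymes sit in the endoplasmic reticulum and insert a second double bond into oleate, which turns it into linoleate. FAD3 enzymes can then add a further double bond to make linolenate, and FAB2 enzymes act earlier, in the plastid, where they make the oleoyl chain from stearate. The soybean genome was duplicated in its past, and FAD2-1A and FAD2-1B are the copies that this duplication left, known as homeologs. Loss of FAD2-1 activity is a known route to seed oil rich in oleic acid.

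RNA was taken from whole seeds of Glycine max at the mid-maturation stage S6, grown in growth chambers and 1 library was made for each line. M23 and N0304-303-3 were labelled as mid-oleic lines, and N0304-303-3 also as low in palmitic and linolenic acid. R02-6268F, R05-4256, R05-591 and R08-1450 were labelled as high-oil lines, FAM94 as high in stearic acid, R95-1705 as high in protein, and Jack as similar to commodity oil. M23 is known from earlier work to carry a deletion on chromosome 10 that includes FAD2-1A. The oil traits used here are only those words, since fatty acid contents were not analysed here.

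The deposited table gives no read count and no FPKM for single lines, so no counting interval is given, and no value has a replicate error. The read totals that the study states for its libraries were not used here. For each gene it holds the authors' mean FPKM, a level corrected for transcript length and library size and averaged over the 9 lines, together with 1 Z-score per line. The Z-score is the distance of a line's log2-transformed FPKM from the gene's mean over the lines, counted in that gene's own standard deviations. Equal Z-scores of different genes are therefore not equal fold changes, and with 9 lines no Z-score can pass 2.67 in size. Of the 10 genes with the highest mean FPKM, 5 were annotated as glycinin or 2S albumin, storage proteins that mark maturing seeds. No line has a replicate, so the error of a single line's value is not known.

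FAD2-1B was by far the more abundant homeolog on average over the lines. Its mean was 2846 FPKM over the 9 lines, against 384 FPKM for FAD2-1A, a ratio of 7.40 on a scale corrected for transcript length. FAD2-1B ranked 32 among the 33779 genes and held 0.387% of the summed mean FPKM. FAD2-1A ranked 151 and held 0.0523%. FAD2-1B thus made up 88.1% of the summed means of both genes and FAD2-1A 11.9%. These are shares of means, which include M23, and they do not order the homeologs within each line. The authors removed reads with more than 1 location, and reads from stretches identical in both copies may have been lost from either gene, which was not tested. Per the table, FAD2-1A spans positions 49415307 to 49418492 of chromosome 10 and FAD2-1B spans 34176223 to 34179768 of chromosome 20 of the soybean genome used with the Gmax_189 annotation. These spans of 3186 bp and 3546 bp cover the whole assembled gene, and the table does not divide them into exons and introns.

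FAD2-1A was lowest in M23. Its Z-score was -2.40 in M23 and 0.39 in N0304-303-3, the other mid-oleic line. The high-oil lines had 0.59 in R02-6268F, 0.45 in R05-4256, 0.25 in R05-591 and 0.01 in R08-1450. The remaining lines had 1.06 in Jack, 0.19 in FAM94 and -0.55 in R95-1705. M23 lay 1.85 below R95-1705, the next lowest line, which is 1.15 times the range of 1.61 over the other 8 lines. Only M23 passed the Z-score of 2 in size that the study's methods use as a cutoff. A Z-score of 2 or more in size in any line was found for 23.8% of all genes, so passing it somewhere does not set a gene apart. A Z-score of -2 or less in M23 itself was found for 116 genes, or 0.343%. FAD2-1A had the highest mean FPKM of these 116 genes, and 18 genes of the table had a lower Z-score in M23.

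FAD2-1B was not low in M23. Its Z-score there was 0.78, the second highest of the 9 lines, and in N0304-303-3 it was -0.49. The high-oil lines had 0.70 in R05-4256, 0.51 in R02-6268F, -0.32 in R08-1450 and -0.81 in R05-591. The remaining lines had 1.77 in Jack, -0.77 in FAM94 and -1.38 in R95-1705. Jack was the highest line and R95-1705 was the lowest, with a range of 3.15, and 0 lines passed the cutoff of 2. Neighbouring lines in this order lay close together: M23 lay 0.08 above R05-4256 and FAM94 lay 0.04 above R05-591. Without replicates such lines cannot be ranked.

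**Figure D1:**
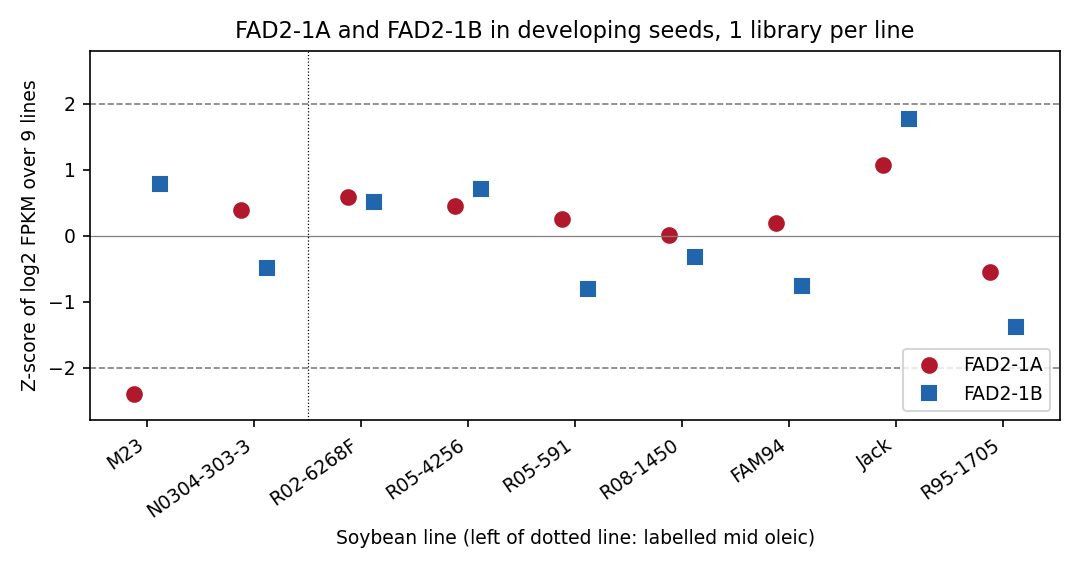
Z-scores of log2 FPKM (vertical axis, no unit) of FAD2-1A (red circles) and FAD2-1B (blue squares) in each of the 9 lines, with 1 library per line and the mid-oleic lines at the left. FAD2-1A in M23 lies at -2.40, below the dashed line at -2, while FAD2-1B in M23 lies at 0.78, and Jack is the highest line for both genes.

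The homeologs were compared line by line to ask whether they varied together. Over the 9 lines they did not measurably do so, since r (Pearson) was 0.11 with an exact permutation p of 0.804, two-sided as throughout. The rank correlation of Spearman (rho) over the same 9 lines was 0.40 with an exact permutation p of 0.291. Without M23, the remaining 8 lines gave an r of 0.89 (exact permutation p = 0.00365) and a rho of 0.81 (exact permutation p = 0.0218). Adjusted after Benjamini and Hochberg over the 6 tests reported on these genes, the exact permutation p of r was 0.965 over 9 lines and 0.0219 over 8 lines. The adjusted exact permutation p of rho, over 2 tests, was 0.291 over 9 lines and 0.0436 over 8 lines. Jack was the highest and R95-1705 the lowest of these 8 lines for both genes. The relation leaned on them: with M23 and Jack left out, the lines farthest from the median of FAD2-1A, r was 0.79 over 7 lines (exact permutation p = 0.0296), and with R95-1705, Jack and M23 left out it was 0.67 over 6 lines (exact permutation p = 0.167).

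The lines also differed in how high their abundant genes stood in general. Over the 65 genes at or above a mean of 1000 FPKM, FAD2-1B among them, the median Z-score was 1.03 in Jack, 0.31 in M23, 0.31 in N0304-303-3, 0.31 in R05-4256, -0.22 in R02-6268F, -0.32 in FAM94, -0.38 in R08-1450, -0.41 in R95-1705 and -0.81 in R05-591. Jack, the highest line for both homeologs, was also the highest here, while R05-591 was lowest here and not for either homeolog. When these medians were subtracted from each line, the correlation over 8 lines fell to 0.34 (exact permutation p = 0.403), an alternative chosen after the data were seen. When medians over genes at or above 10 FPKM were subtracted, it was 0.78 (exact permutation p = 0.0208). With medians over all genes subtracted it was 0.89 (exact permutation p = 0.003). These alternatives were not planned for the 8 lines either. In R05-591 the median over the 65 genes was the Z-score of FAD2-1B itself, -0.81, so the subtraction took that value away. The medians pool Z-scores counted in each gene's own standard deviations, so none of these subtractions tests a shift in levels. Depth, library composition and seed stage were not measured here, and their part in the relation was not tested.

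Standardized again over the 8 lines without M23, the homeologs lay on the same side of the mean in 7 lines and differed by less than 0.5 in 5 lines. Jack had 1.83 for FAD2-1B and 1.64 for FAD2-1A, and R95-1705 had -1.25 for FAD2-1B and -1.82 for FAD2-1A. The exception in sign was N0304-303-3, with -0.38 for FAD2-1B and 0.20 for FAD2-1A. The largest differences, FAD2-1B minus FAD2-1A, were -0.58 in R05-591, -0.58 in N0304-303-3 and 0.56 in R95-1705.

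**Figure D2:**
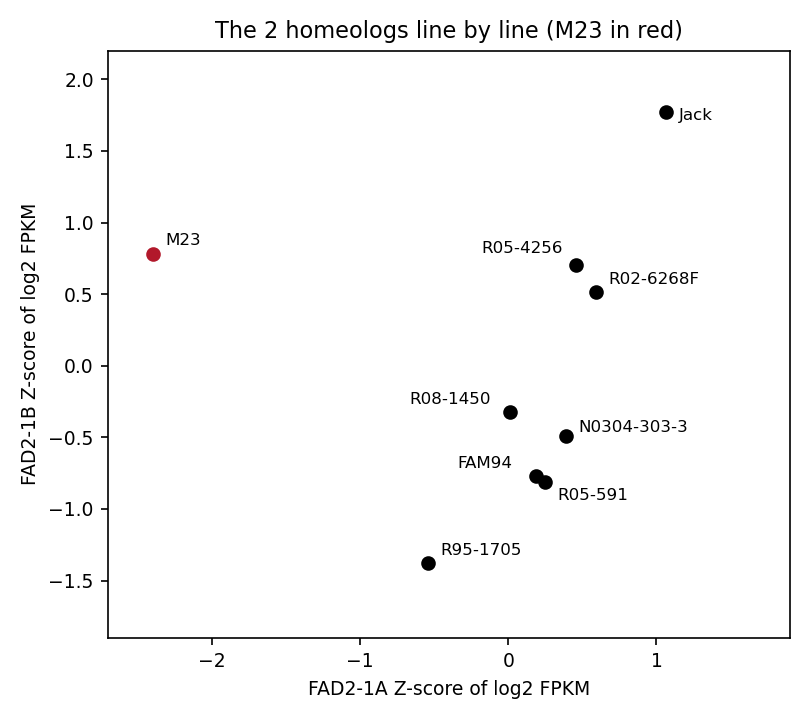
Z-score of FAD2-1B (vertical axis) against Z-score of FAD2-1A (horizontal axis), 1 point per line. The 8 black points run from R95-1705 at the lower end to Jack at the upper end, and M23 in red lies apart at -2.40 for FAD2-1A and 0.78 for FAD2-1B.

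The 2 mid-oleic lines did not share a FAD2-1 pattern. The mean Z-score of FAD2-1A was -1.0 ± 1.97 in the mid-oleic lines (SD, n = 2 lines) and 0.29 ± 0.50 in the other lines (SD, n = 7 lines). The difference of -1.29 did not pass an exact two-sided permutation test over lines (p = 0.139, adjusted over 6 tests p = 0.417), which with these numbers of lines cannot give less than 0.0278. It came from M23 alone, since N0304-303-3 was above the mean of the other lines and the difference was 0.10 with M23 left out. For FAD2-1B the mean was 0.15 ± 0.90 in the mid-oleic lines (n = 2) and -0.04 ± 1.09 in the other lines (n = 7), a difference of 0.19 (exact permutation p = 0.778, adjusted p = 0.965). Of the 2 lines, only M23 had a low FAD2-1A. Its FAD2-1B of 0.78 was close to the 0.70 of R05-4256 and below the 1.77 of Jack, and N0304-303-3 had -0.49.

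The high-oil label did not separate the lines for either gene. FAD2-1A averaged 0.33 ± 0.25 in the high-oil lines (SD, n = 4 lines) and -0.26 ± 1.33 in the others (n = 5), a difference of 0.59 (exact permutation p = 0.524, adjusted p = 0.965). The 4 high-oil lines all lay within the range of the others. Without M23 the difference was 0.05. FAD2-1B averaged 0.02 ± 0.71 in the high-oil lines (n = 4) and -0.02 ± 1.27 in the others (n = 5), a difference of 0.04 (exact permutation p = 0.968, adjusted p = 0.968). These comparisons could reach an exact p of 0.00794 at the least.

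The Z-scores and the mean FPKM together limit the levels that each line can have had, although they do not fix them. On the log2(FPKM + 1) scale, every assumed level of FAD2-1A in M23, from 0 to the mean of 384 FPKM, gives 1 set of levels in the other 8 lines. With M23 at 0 FPKM, the lowest of the others was R95-1705 at 48.5 FPKM, the highest was Jack at 1463 FPKM, and their mean was 432 FPKM. With M23 at 10% of the mean, or 38.4 FPKM, R95-1705 was at 193 FPKM and Jack at 771 FPKM, and the mean of the others was 11.1 times the level in M23. With M23 at 50% of the mean, a level assumed only to show the form of the limits, the other lines ran from 321 FPKM to 501 FPKM. The paper describes the expression of this gene in the deletion line as barely above background. The higher assumed levels go against that description, which was not used to narrow the limits. With M23 at 0 FPKM, R95-1705 was at 19.4 FPKM with a constant of 0.1 and at 7.37 FPKM with 0.01. The order of the lines is the same in each case, and the lower the level in M23, the wider the spread among the others.

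**Figure D3:**
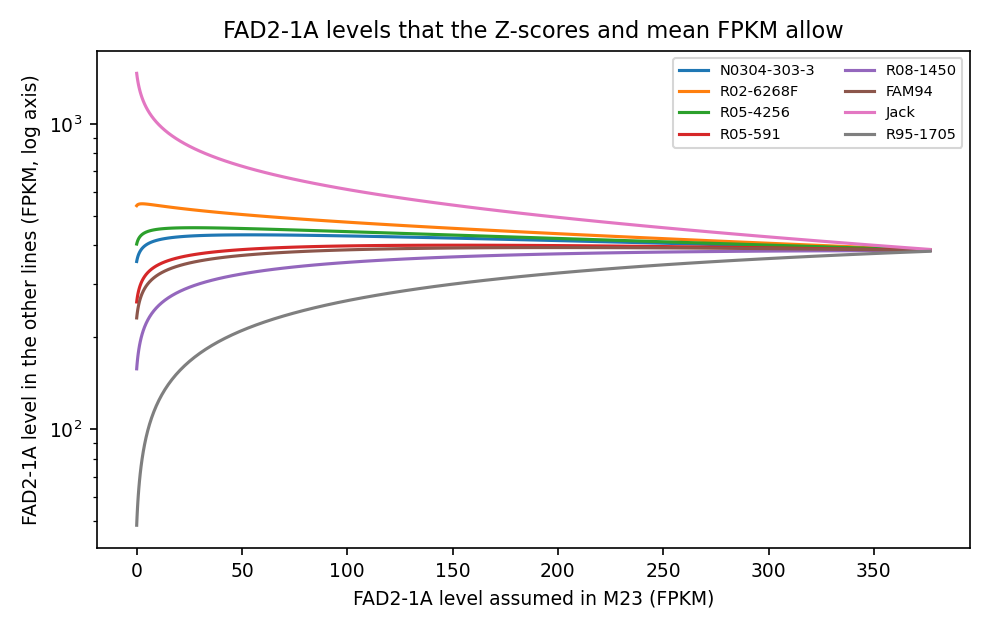
FAD2-1A levels in the other 8 lines (vertical axis, FPKM, log axis) that are compatible with the deposited Z-scores and mean, for each level assumed in M23 (horizontal axis, FPKM). At 0 FPKM in M23 R95-1705 is lowest at 48.5 FPKM and Jack highest at 1463 FPKM, and the lines close in on the mean as the assumed level rises.

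The same limits were used to compare the homeologs within a line, and the outcome depended on the constant added before the logarithm. In Jack, FAD2-1B was at least 2846 FPKM, and FAD2-1A was at most 1463 FPKM with the constant of 1 and at most 2284 FPKM with a constant of 0.01, so FAD2-1B was the higher homeolog with each constant tried. In M23, FAD2-1B was at least 993 FPKM with the constant of 1, at least 499 FPKM with 0.1 and at least 246 FPKM with 0.01, beside at most 384 FPKM for FAD2-1A. Its lowest allowed level in M23 was thus 2.58 times the highest of FAD2-1A with the constant of 1, 1.30 times with 0.1 and 0.64 times with 0.01, where the ranges overlapped. That highest level, 384 FPKM, is a limit approached only as every line nears the mean. The paper's description of expression barely above background in M23 was not used to narrow it. With FAD2-1A in M23 at 10% of the mean, or 38.4 FPKM, FAD2-1B was higher there with each constant. In R05-4256 the ranges were apart with the constant of 1 only. In the other 6 lines they overlapped with each constant, and the table alone does not order the homeologs there. In N0304-303-3, the other mid-oleic line, FAD2-1A was at least 354 FPKM with the constant of 1 and at least 208 FPKM with 0.01. These limits rest on the deposited Z-scores and means alone and cover no measurement error.

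The genes beside FAD2-1A shared its low value in M23. Of the 5 listed genes on either side of it, 7 had a Z-score of -2 or less in M23, against 0.343% of all genes, and the median over the 10 was -2.51. The nearest gene before it, XLOC_028060, annotated as a putative F1F0-ATPase inhibitor, had a mean of 130 FPKM and a Z-score of -2.57 in M23. The nearest gene after it, XLOC_026650, annotated as the membrane fusion protein VAMP727, had a mean of 36.5 FPKM and -2.60. FAD2-1A lay within 18 adjacent listed genes at -2 or less in M23, 2 before it and 15 after it, which spanned 132 kb from 49407139 to 49539106 of chromosome 10. This extent depends on the cutoff, since the next listed gene before them, XLOC_028059, starting at 49378696, had -1.92 in M23. Beside FAD2-1B, 0 of the 10 nearest genes reached -2 in M23, and their Z-scores there ran from -0.26 to 1.33.

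The nearest gene after it, XLOC_052705, had a mean of 34.4 FPKM and 0.39 in M23, and the nearest before it, XLOC_053863, had 0.53 there. Over the 8 lines without M23, r between FAD2-1B and its 10 neighbours ran from -0.29 to 0.76.

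**Figure D4:**
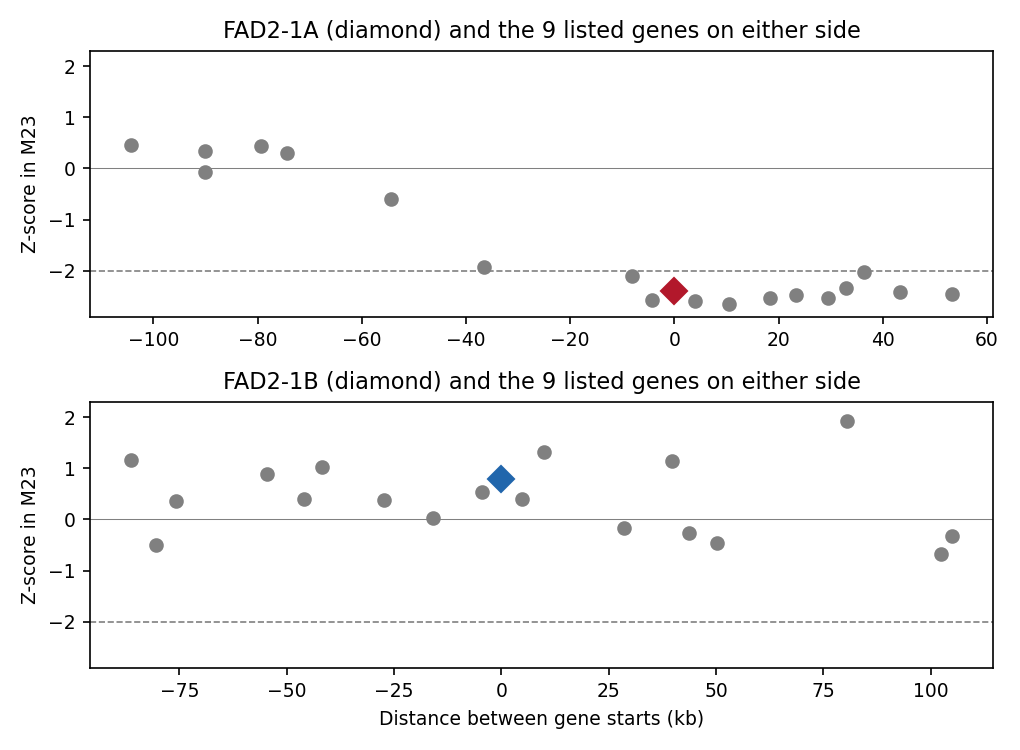
Z-score in M23 (vertical axis) of FAD2-1A (upper panel, red diamond), FAD2-1B (lower panel, blue diamond) and the 9 listed genes on either side of each (grey circles), against the distance between gene starts in kb. Around FAD2-1A the points drop to -2 or less from the gene at -8.17 kb onward, and around FAD2-1B none reaches the dashed line at -2.

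The desaturase genes before and after the FAD2 step were not low in M23. The 6 genes named by the study are FAB2A, FAB2B and FAB2C, which desaturate stearoyl chains, and FAD3A, FAD3B and FAD3C, which desaturate linoleate. Of these, 0 had a Z-score of -2 or less in M23, where they ran from -0.02 for FAB2A to 1.32 for FAD3B. FAB2C had 1.25, FAD3C 0.98, FAD3A 0.93 and FAB2B 0.45 in M23. The cutoff of 2 was passed by 2 of the 6 genes, against 23.8% of all genes, namely FAB2B with -2.35 in R05-591 and FAD3A with -2.31 in N0304-303-3. The median of their largest Z-score in size was 1.80, beside 1.77 over all genes. N0304-303-3, in which FAD2-1A and FAD2-1B were within 0.5 of their means, had its low value at the linoleate step, where its FAD3B was the highest of the 9 lines at 1.58.

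FAB2C was the gene of these steps whose pattern was closest to that of FAD2-1B. It had 1.81 in Jack and 1.25 in M23, its highest lines, -0.94 in R95-1705 and -1.37 in FAM94. Over the 9 lines r was 0.88 (exact permutation p = 0.000951, Benjamini-Hochberg adjusted p = 0.0114 over 12 relations) and rho was 0.87 (exact permutation p = 0.00451, adjusted p = 0.0541). Without Jack and M23, the lines farthest from the median of FAD2-1B, r was 0.70. With FAD2-1A the r of FAB2C was -0.11 over 9 lines (exact permutation p = 0.755, adjusted p = 0.993; rho 0.43, exact permutation p = 0.250, adjusted p = 0.539) and 0.81 over the 8 lines without M23. FAD3C had an r of 0.01 with FAD2-1A over 9 lines (exact permutation p = 0.985, adjusted p = 0.993), 0.82 without M23 and Jack, and 0.84 over the 8 lines without M23. Over the same 8 lines, r with FAD2-1A was -0.01 for FAB2A, 0.24 for FAB2B, 0.35 for FAD3A and 0.35 for FAD3B. These values over 8 lines are given without a test. Among the other relations of the 6 genes with the homeologs over 9 lines, the highest r was 0.66 for FAD3C with FAD2-1B (exact permutation p = 0.0549, adjusted p = 0.329; rho 0.65, exact permutation p = 0.0666, adjusted p = 0.304), with 0.51 after Jack and M23 were left out. These relations were added after the values were seen, and line medians were not subtracted from them.

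**Figure D5:**
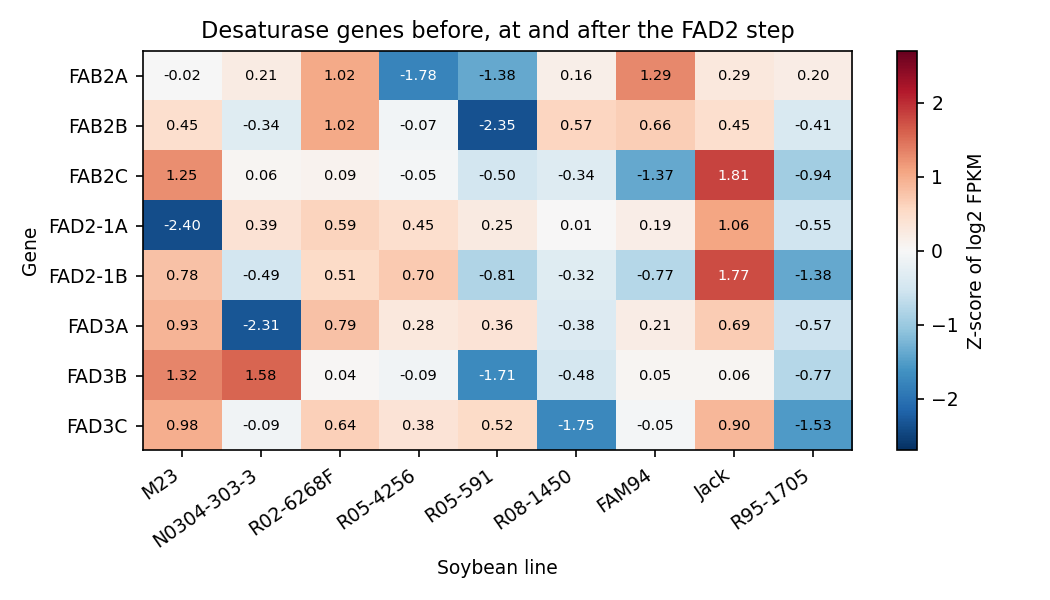
Z-scores of log2 FPKM (colour, values printed) of the 3 stearoyl desaturase genes, the 2 FAD2-1 homeologs and the 3 linoleate desaturase genes (rows) in the 9 lines (columns). The lowest cells are FAD2-1A in M23 at -2.40, FAB2B in R05-591 at -2.35 and FAD3A in N0304-303-3 at -2.31.

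The genes most like each homeolog were sought among the 7327 other genes at or above 10 FPKM on average. Over 9 lines the closest to FAD2-1A were XLOC_018309 on chromosome 7 with an r of 0.96, its neighbour XLOC_026650 with 0.95 and XLOC_021706 on chromosome 8 with 0.95. All of them were below -2 in M23, which this ranking selects for, since M23 is the farthest line for FAD2-1A. FAD2-1B ranked 2123 in this order. Over the 8 lines without M23, the closest to FAD2-1A were XLOC_025052, XLOC_006366 and XLOC_018158, with r from 0.96 to 0.97. Their Z-scores in M23, which had no part in that ranking, were 1.15, 0.84 and 0.63, against -2.40 for FAD2-1A. FAD2-1B then ranked 78.

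The closest genes to FAD2-1B over 9 lines were XLOC_044288 on chromosome 17 with an r of 0.98, XLOC_034544 on chromosome 13 with 0.97 and XLOC_015130 on chromosome 6 with 0.95. All had their highest Z-score in Jack and their lowest in R95-1705, as FAD2-1B did, a likeness that the ranking itself selects for. FAD2-1A ranked 3731 among the genes compared with FAD2-1B over 9 lines and 76 over the 8 lines without M23. These likenesses describe the 9 libraries and carry no test.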

How the data were processed

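The members, gene lists and comparisons were chosen with earlier results of these data known. The authors trimmed 100 bp paired reads to 90 bp, aligned them to the soybean reference genome with TopHat 1.4.0 and Bowtie 0.12.8, allowing 2 mismatches, dropping reads with several locations and guided by the Gmax_189 annotation. They assembled transcripts per line with Cufflinks 2.1.1, merged them with Cuffmerge and quantified the merged set with Cuffdiff 2.1.1. Genes were kept if their mean reached 0.5 FPKM or if every line expressed them. The deposited values are the authors' mean FPKM over 9 lines and a Z-score of log2-transformed FPKM per line (a score without unit). Of the per-line columns, 0 were left unused. Both members were matched to their names through the mean FPKM in the study's supplementary tables, and RefSeq (Glycine_max_v4.0) lists both symbols on the same chromosomes. FAB2 and FAD3 genes were matched by chromosome and mean FPKM or start.

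Lines were compared by exact permutation, two-sided by the size of r or of the difference, in Python 3.11.15 with NumPy 2.4.6 and SciPy 1.17.1. FPKM limits were solved on log2(FPKM + 1). Of the constants 0.01, 0.1 and 1, the last fitted the extremes tabulated for abundant genes best. Steps were tested on simulated data. Named genes are the members, the 6 desaturase genes, the 5 listed genes on either side and the 3 most similar genes at or above 10 FPKM. Alternatives left out each line, subtracted line medians, used ranks, standardized over 8 lines, and changed the cutoff, the filter and the constant. With 1 library per line there is no replicate error.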

Additional observations from a re-analysis of the deposited data

Results flagged for a closer look

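In FAD2-1A, the gap between M23 and the next lowest line was 0.535 of the whole range of the 9 lines, past the critical value of Dixon's test for a sample far from the others. In FAB2B, R05-591 stood apart as the lowest of the 9 lines with a share of 0.577. In FAD3A, N0304-303-3 stood apart as the lowest line with 0.539. Among the 4 high-oil lines, R08-1450 was far below the others for FAD3C, with 0.891. Its Z-score was -1.75, and R95-1705, outside that group, had -1.53. Among the 5 other lines, FAM94 was far above the rest for FAB2A, with 0.768. Its Z-score was 1.29, and the high-oil line R02-6268F had 1.02. In all, 24 groups of values were examined and chance would mark about 1 in 20. The groups of 4 and 5 lines are parts of the 9 lines, so the groups are not independent.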

How the results depend on the processing

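With each line left out in turn, r between the homeologs ran from -0.23, without Jack, to 0.89, without M23, and it was -0.0007 without R95-1705. The correlation without M23 ran from 0.79 to 0.91 when a further line was left out. Subtracting line medians over genes of at least 1000 FPKM, a set that holds FAD2-1B itself, gave -0.13 over 9 lines and 0.34 over 8 lines. Medians over genes of at least 10 FPKM gave 0.07 and 0.78, and medians over all genes gave 0.13 and 0.89. The mid-oleic difference ran from -2.69 to 0.10 for FAD2-1A and from -0.45 to 0.82 for FAD2-1B, and standardized over 8 lines without M23 it was 0.22 for FAD2-1A and -0.44 for FAD2-1B. The high-oil difference ran from 0.05 to 0.92 for FAD2-1A and from -0.30 to 0.48 for FAD2-1B. The genes past the cutoff, 8037 of the 33779 listed, numbered 3378 at a cutoff of 2.2. Of the 7328 genes of at least 10 FPKM, 1664 passed the cutoff of 2, a smaller count from fewer genes tested. With M23 at 0 FPKM, FAD2-1A in Jack was 1897 FPKM with a constant of 0.1 and 2284 FPKM with 0.01, and the highest of the other lines was 30.2, 97.8 and 310 times the lowest with constants of 1, 0.1 and 0.01. FAD2-1B was higher at every allowed level in 3 lines with the constant of 1, 2 with 0.1 and 1 with 0.01, and its lowest level in M23 was 1.30 times the highest of FAD2-1A with 0.1 and 0.64 times with 0.01, alternatives chosen after the data were seen. That highest level of FAD2-1A in M23 is the limit with every line at the mean. Of the 3 genes most like FAD2-1A over 8 lines, 1 was shared with a filter at 1 FPKM and 0 with Spearman's rho. The cause of the other shifts was not tested. No paired analysis was possible because each line had 1 library. Read depth was not used here, and the table holds no counts from which its effect on each value could be computed.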
